A study of Mus musculus with 41 samples.

Results

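The basal keratin genes Krt5, Krt6a, Krt6b, Krt14, Krt15, Krt16 and Krt17 and the transcription factor gene Trp63 were followed through 41 mouse mammary tumors. These 8 genes were taken by symbol from the 47480 symbols of the normalized table, and all 8 were found. The 28 PLK2null tumors were Plk2-/-; p53-/-, and the 13 p53null tumors were p53-/- with Plk2 intact, both in the Balb/c background. Each tumor carries its genotype and the number of its label, PLK2null-1963 for example. The PLK2null tumors arose from mammary epithelial cells of germline Plk2-/-; p53-/- mice transplanted into wild-type Balb/c hosts whose fat pads had been cleared. The series describes its untreated tumors as serial transplants, while some of the PLK2null tumors are shown by the study as primary. Both groups thus share the loss of p53, and neither holds a p53 wild-type or a normal gland. The labels do not give age or say which tumors descend from which, so the tumors of a genotype may not be independent and p-values measure the spread between these libraries. The tumors taken here as claudin-low were PLK2null-732, PLK2null-733, PLK2null-743 and p53null-T11, of which the study's list of models names the last pair. That list has PLK2null-1963 as basal-like and p53null-2208L and PLK2null-1975 as luminal-like. The study assigned its classes by clustering RNA libraries on genes that include Krt5.

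Keratins build the intermediate filaments of epithelial cells, and a filament needs a type I and a type II keratin as partners. Krt5 (type II) and Krt14 (type I) form the constitutive pair of basal cells in stratified epithelia and of the myoepithelial layer of the mammary gland, where Krt15 is a further basal type I keratin. Krt6a and Krt6b (type II) pair with Krt16 and Krt17 (type I) and are induced in wounded or hyperproliferative epithelium. Trp63 encodes p63, the relative of p53 that maintains basal progenitor cells and drives basal keratin genes, among them Krt5 and Krt14. Luminal cells of the gland carry the simple pair Krt8 and Krt18 instead.

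In GENCODE vM21 on GRCm38, the mm10 build, the type II genes form a cluster on chromosome 15. Krt6b spans 101676023 to 101680287, Krt6a 101689910 to 101694307 and Krt5 101707070 to 101712898. The type I genes lie together on chromosome 11, with Krt15 at 100131758 to 100135928, Krt14 at 100203162 to 100207548, Krt16 at 100246091 to 100248902 and Krt17 at 100256217 to 100261029. All 7 keratin genes are on the minus strand. Trp63 lies on the plus strand of chromosome 16, from 25683763 to 25892102, and its 8 annotated coding transcripts include the long TA and the short ΔN forms, which a single value per gene cannot separate.

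The keratin genes are near copies of one another, which bears on how far reads can be assigned to them. The coding sequences of Krt6a and Krt6b were 97.8% identical over 1659 aligned bases, and 49.5% of the 50-base words of the Krt6a transcript (the length of 1 read) occur in another gene, 43.6% in Krt6b. The longest identical coding run was 280 bases. The coding stretch that differs most is shown because reads can be told apart there, with the 14 differing bases in capitals, from coding base 771 to 870 of each gene.
Krt6a: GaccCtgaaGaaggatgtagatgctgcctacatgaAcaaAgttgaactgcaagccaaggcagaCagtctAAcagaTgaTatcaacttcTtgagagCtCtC
Krt6b: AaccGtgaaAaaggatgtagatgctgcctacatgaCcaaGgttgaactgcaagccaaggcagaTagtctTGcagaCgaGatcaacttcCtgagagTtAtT
The split of reads between Krt6a and Krt6b is therefore uncertain. Krt16 shared 37.6% of its words with other genes, 25.2% with the predicted gene Gm11597 and 12.4% with Krt14, so its low values are uncertain too. Krt14 shared 14.4%, Krt5 8.52%, Krt17 3.99% and Krt15 0.666% of their words, and Trp63 shared 0.

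Because Krt5 and Trp63 moved together within both genotypes (given further on), the sequence upstream of Krt5 is shown. It runs from 101712906 to 101713155 of chromosome 15 on the minus strand (RefSeq, GRCm38.p6), the 250 bases before the RefSeq start, with a match to the p53 family half-site, the short motif that p53 and p63 recognise, in capitals.
Krt5 upstream: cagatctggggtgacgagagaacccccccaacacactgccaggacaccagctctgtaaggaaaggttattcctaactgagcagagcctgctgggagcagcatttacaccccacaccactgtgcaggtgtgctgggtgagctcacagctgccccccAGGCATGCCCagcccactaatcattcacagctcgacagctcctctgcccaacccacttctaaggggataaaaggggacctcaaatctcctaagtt
The match began 95 bases upstream of the start. On either strand, this motif occurs in 8.36% of 32851 RefSeq windows of 300 bases, and the match says nothing of binding. The AP-1 motif TGANTCA, found in 7.81% of the windows on either strand, was absent from the 300 bases around the Krt5 start.

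A deposited value is an estimated count scaled so that the upper quartile of a tumor's nonzero values is 1000. The step between low values gave the worth of 1 read, and from it a depth of 29409598 to 70868089 fragments per tumor. A value of 3 reads, taken as the floor of detection and covering counting error only, was 1.16 to 2.45. Depth differed by genotype, with medians of 39053967 fragments in the PLK2null and 58042747 in the p53null tumors. The median floors were 1.96 and 1.41. Genes with a mean of at least 10 entered limma as log2(value + 1), p-values were adjusted over all genes tested after Benjamini and Hochberg, and a gene is said to be lower where the adjusted p fell below 0.05. The pseudocount of 1 makes fold changes of low genes smaller than they are. A series name stands in the titles of all 13 p53null libraries and of 0 PLK2null libraries, so a library series and the genotype cannot be told apart. Plk2, the check of the labels, was at 36.6 to 553 in the PLK2null and at 186 to 8028 in the p53null tumors, and the lowest of the p53null values, in the library labelled p53null-7435, fell inside the PLK2null range. In bulk tumors, fewer cells of a type and less RNA per cell cannot be told apart.

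Krt14 and Krt17 led the family in the PLK2null tumors. Per kilobase of transcript, which allows genes to be compared, the median levels in the 28 PLK2null tumors were 671.7 for Krt14, 549.9 for Krt17, 74.4 for Krt6a, 47.7 for Krt15, 21.2 for Krt5, 20.2 for Trp63, 18.1 for Krt16 and 7.34 for Krt6b. In the 13 p53null tumors the order was Krt17 (3018), Krt5 (2795), Krt14 (2439), Krt15 (704), Trp63 (463), Krt6a (348.5), Krt16 (58.1) and Krt6b (32.2). Krt5 thus stood next to its partner Krt14 in the p53null medians and far below it in the PLK2null medians. Within either genotype, neighbours in this order overlapped in their ranges. The luminal pair Krt8 and Krt18 stood above all of them, at medians of 8962 and 11702 per kilobase in the PLK2null tumors.

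**Figure D1:**
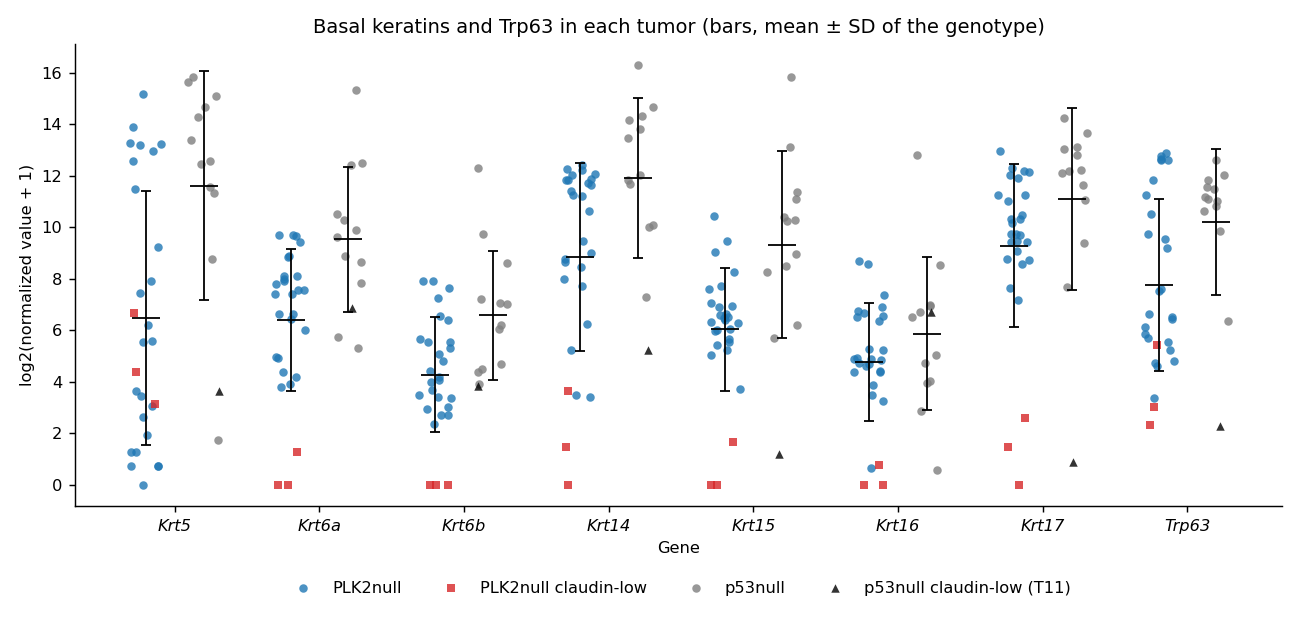
Normalized value of each gene in each tumor on a log2(value + 1) scale, by genotype, with the mean ± SD of the genotype as bars (n = 28 PLK2null, n = 13 p53null) and the claudin-low tumors in their own symbols. Krt5 spread from 0 to 36680 in the PLK2null tumors, and the 3 PLK2null claudin-low squares lie at 11.5 or below for every keratin except Krt5.

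Trp63, the regulator of the basal program, ranged from 3.95 in PLK2null-743 over a median of 95.01 to 7601 in PLK2null-1965 in the PLK2null tumors. Among the p53null tumors it ranged from 3.90 in p53null-T11 over a median of 2178 to 6309 in p53null-10151. After p53null-T11, the lowest p53null tumor was the luminal-like p53null-2208L at 80.7, and the remaining 11 lay at 930 or above. The 3 highest values of all 41 tumors came from PLK2null tumors, and 0 p53null tumors lay above the PLK2null range. The difference in mean log2(value + 1) was -2.45 (SE, 1.04; 95% interval, -4.56 to -0.35; adjusted p = 0.0570, limma), which did not pass the threshold. It passed when any of 9 tumors was left out, namely PLK2null-1963, PLK2null-1964, PLK2null-1965, PLK2null-1971, PLK2null-7747, PLK2null-7748, PLK2null-7763, p53null-2208L or p53null-T11 (adjusted p as low as 0.0102, without p53null-T11).

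Krt5 had the largest difference between the genotypes among the 8 genes. Its values in the PLK2null tumors were 0 in PLK2null-1980 at the lowest, 46.6 at the median and 36680 in the basal-like PLK2null-1963 at the highest. The p53null values were 2.38 in the luminal-like p53null-2208L, 6141 at the median and 57477 in p53null-10151. The mean was 3535 ± 7731 (SD, n = 28) and 16710.3 ± 19855 (SD, n = 13), so the spread exceeded the mean in both. In all, 6 PLK2null tumors were at or below the floor, none of the p53null tumors was, and 22 of 28 PLK2null tumors lay below the p53null median. The difference was -5.13 on the log2 scale (SE, 1.57; adjusted p = 0.00796, limma), a 35.0-fold lower geometric mean of value + 1.

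Krt14, its type I partner, was at 0 in PLK2null-743, 1140.5 at the median and 5445 in PLK2null-7753 at the highest among PLK2null tumors. It was at 37.03 in p53null-T11, 4141 at the median and 80243 in p53null-5329 among the p53null tumors. Only 6 of 28 PLK2null tumors lay below all p53null tumors, while 6 of 13 p53null tumors lay above all PLK2null tumors. Krt14 was lower in the PLK2null tumors by a log2 difference of -3.06 (SE, 1.14; adjusted p = 0.0302, limma). Leaving out any of p53null-10151, p53null-10152, p53null-5317, p53null-5329 or p53null-7435 lost this call (adjusted p up to 0.0629, without p53null-5329).

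Krt15 was at 0 in PLK2null-733 and PLK2null-743, 81.0 at the median and 1383 in PLK2null-1963 at the highest among PLK2null tumors. Its p53null values were 1.30 in p53null-T11 at the lowest, 1197 at the median and 57844 in p53null-10152 at the highest. Of the PLK2null tumors, 27 of 28 lay below the p53null median. Krt15 was lower by -3.29 on the log2 scale (SE, 0.926; adjusted p = 0.00411, limma), the smallest adjusted p of the 8 genes.

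Among the inducible keratins, Krt6a reached 834 at most in the PLK2null tumors (PLK2null-1975), with 169.6 at the median and 0 in PLK2null-733 and PLK2null-743. It was at 39.0 in p53null-2208L, 794 at the median and 40512 in p53null-5329 among the p53null tumors. Krt6b had a highest value of 240.1 in PLK2null-1970 and of 5049 in p53null-5329 and medians of 16.4 and 72.0 in the PLK2null and p53null tumors. Both were lower in the PLK2null tumors, Krt6a by -3.13 (SE, 0.910; adjusted p = 0.00541, limma) and Krt6b by -2.30 (SE, 0.757; adjusted p = 0.0138, limma). The value of Krt6b was 0.154 of that of Krt6a at the median over 38 tumors with Krt6a above the floor, and since the transcripts share words the 2 differences are not separate observations.

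Krt16 and Krt17, the type I partners, did not pass the test. Krt16 was at 0 to 412 in the PLK2null tumors (median, 28.4) and at 0.481 to 7069 in the p53null tumors (median, 91.0), and its highest value was again in p53null-5329. The p53null range apart from that tumor ended at 365, in p53null-2396R. Krt17 was at 0 to 8046 (median, 853) and at 0.866 to 19196 (median, 4681). Differences were -1.10 for Krt16 (95% interval, -2.76 to 0.57; adjusted p = 0.301, limma) and -1.80 for Krt17 (95% interval, -3.96 to 0.37; adjusted p = 0.185, limma). Without p53null-T11, in which Krt17 was at 0.866, Krt17 passed at -2.64 (adjusted p = 0.0244, limma).

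Over the 8 genes, 5 of the 8 genes were lower in the PLK2null tumors and 0 were higher (6 lower and 0 higher at an unadjusted p below 0.05 in limma), against a background of 15.3% of 17208 genes lower and 39.5% changed in either direction. That background is for the adjusted threshold, and no share of all genes was counted at the unadjusted one. All 8 differences were negative, with a median of -2.76, beside a median of 0.10 over all genes tested. Rescaling by trimmed-mean factors moved that median to -0.04 and the calls over all genes from 4175 higher and 2627 lower to 3276 higher and 3651 lower, while quantile normalization gave 3425 and 3325. The signs of the 8 genes held under both scalings, and Trp63 passed under both (adjusted p = 0.0408 and 0.0386, limma). With only the 7 primary PLK2null tumors that the study names against the 13 p53null tumors, 0 of the 8 genes passed in limma, 0 also at an unadjusted p below 0.05, and the differences of the 5 genes above shrank to -3.63 for Krt5 (adjusted p = 0.269, limma), -1.77 for Krt6a, -1.60 for Krt6b, -1.78 for Krt14 and -2.47 for Krt15. The other 3 of the 8 genes were at -0.784 for Trp63 (adjusted p = 0.729, limma), -0.810 for Krt17 and -0.848 for Krt16. The primary tumors held none of the claudin-low tumors, while the p53null tumors still held p53null-T11. Trp63 had a mean log2(value + 1) of 9.43 in the primary tumors, against 10.21 in the p53null tumors and 10.87 without p53null-T11. Krt17 was at 10.27, against 11.08 and 11.93. That fit passed 2942 genes in all. Krt5 in those 7 tumors ran from 0.680 in PLK2null-7750 over a median of 594 to 9505 in PLK2null-7747.

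**Figure D2:**
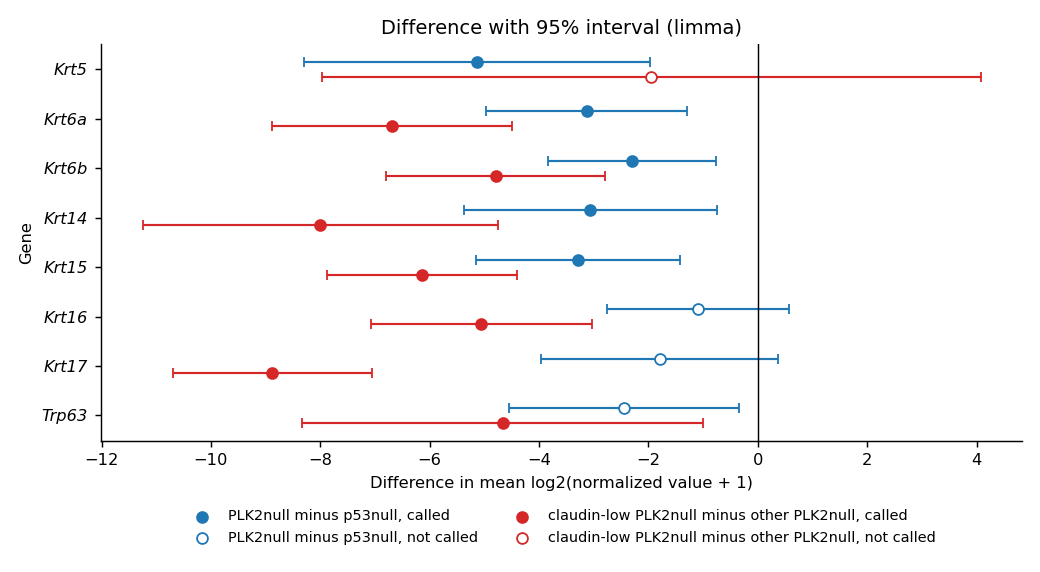
Difference in mean log2(value + 1) with its 95% interval from limma for each gene in both comparisons, filled where the adjusted p was below 0.05. Krt5 stands at -5.13 between the genotypes and its interval spans 0 between the claudin-low and the other PLK2null tumors, while Krt17 stands at -8.88 in the latter. There, Krt17 was at or below the floor in 2 of the 3 claudin-low tumors.

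The 3 PLK2null claudin-low tumors held each of the basal keratins at 102 or below, with Krt5 the highest of them in each tumor. In PLK2null-732, PLK2null-733 and PLK2null-743, Krt14 was at 11.5, 1.80 and 0, against 9.65 to 5445 in the 25 other PLK2null tumors (median, 2347). Krt17 was at 5.01, 1.80 and 0, against 144 to 8046 (median, 1136). Krt15 was at 2.15, 0 and 0, Krt16 at 0.716, 0 and 0, Krt6a at 1.43, 0 and 0, and Krt6b at 0 in all 3. Krt6a, Krt6b, Krt15 and Krt17 lay below all 25 other tumors in all 3, and 2 of the 3 did so for Krt14 and Krt16. The share of all genes that lay fully apart in this way was not counted, so the separation is given as a description only. The exceptions were PLK2null-1985 and PLK2null-1986 for Krt14, at 9.65 and 10.3, and PLK2null-7763 for Krt16, at 0.559.

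Krt17 was lower by -8.88 on the log2 scale (SE, 0.888; adjusted p = 6.79e-09, limma) and Krt14 by -8.00 (SE, 1.59; adjusted p = 0.000202, limma). Krt17 was at or below the floor in 2 of the 3 claudin-low tumors and Krt14 in 1, so the sizes of these differences depend on the pseudocount. For genes at or below the floor in all 3 claudin-low tumors the fold is a lower bound, with the highest floor of the 3 libraries in place of their values. Krt6a was at least 44.1-fold lower (adjusted p = 1.29e-05, limma), Krt15 at least 32.9-fold (adjusted p = 1.35e-06), Krt16 at least 12.6-fold (adjusted p = 0.000172) and Krt6b at least 8.81-fold (adjusted p = 0.000278). Exact permutation tests over 3276 splits of 3 against 25 gave p = 0.00030525, the smallest they can give, for Krt6a, Krt6b, Krt15 and Krt17. For genes that lie fully apart this p follows from the separation and adds nothing to it.

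Krt5 remained detectable in each of the 3 tumors, at 102 in PLK2null-732, 19.8 in PLK2null-733 and 7.91 in PLK2null-743. Of the 25 other PLK2null tumors, 9 were at or below the lowest of these and 11 were above the highest. The difference was -1.95 on the log2 scale (SE, 2.94; 95% interval, -7.97 to 4.07; adjusted p = 0.639, limma; exact permutation p = 0.533). The interval is wide enough to hold both no difference and one as large as that of Krt15.

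Trp63 was at 42.2, 7.19 and 3.95 in the same order, and 5 of the 25 other tumors lay below the highest of the 3. Its difference was -4.66 (SE, 1.79; adjusted p = 0.0412, limma; exact permutation p = 0.0156). Leaving out any of PLK2null-732, PLK2null-733 or PLK2null-743 lost this call, with adjusted p between 0.0576 and 0.180. Trp63 and Krt5 thus kept the same order, PLK2null-732 above PLK2null-733 above PLK2null-743, in these 3 tumors. That order was not particular to them, since Krt14, Krt17 and Krt8 had it too, while Krt18 did not.

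In all, 7 of the 8 genes were lower in the claudin-low tumors, against a background of 17.1% of 17153 genes lower and 37.3% changed in either direction. The median of the 8 differences was -5.60, beside 0.02 over all genes tested. Because the class was assigned on these libraries with Krt5 among the genes, the test is not independent of the class. The count was 7 without PLK2null-7763, a tumor whose endothelial genes lay between the claudin-low and the other tumors, and 6 without any 1 of the 3 claudin-low tumors.

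The claudin-low p53null tumor, p53null-T11, is a single tumor and has no replicate error. It shared the low Trp63 (3.90), Krt15 (1.30) and Krt17 (0.866) and had Krt5 at 11.4 and Krt14 at 37.03. It differed in Krt6a at 115, Krt16 at 104 and Krt6b at 13.3, each above the 3 PLK2null claudin-low tumors. Krt8 and Krt18 were at 11057 and 22508 in p53null-T11, against at most 63.01 and 61.6 in the 3 PLK2null claudin-low tumors. With p53null-T11 added and genotype as a covariate, 4 tumors against 37, 7 of the 8 genes were again lower, and Krt5 had a difference of -3.66 (adjusted p = 0.258, limma).

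Markers of luminal epithelium and of endothelium moved with the class, and myoepithelial contractile genes did not move as a set. The sums of 6 myoepithelial genes were 7312 to 10863 (median, 9574) in the 3 PLK2null claudin-low tumors. They were 1712 to 129185 (median, 7667) in the 25 others. Of these genes 1 was lower, Cnn1 by -3.93 (adjusted p = 0.0238, limma), and 0 were higher. Over 6 mammary luminal genes, the summed value was 45.7 to 291 in the 3 PLK2null claudin-low tumors and 13539 to 119162 in the 25 others, and all 6 were lower. All 5 simple epithelial keratins were lower as well, Krt8 by -9.61 (adjusted p = 8.58e-15, limma) and Krt18 by -10.18. All 6 endothelial genes were higher, with sums of 165585 to 186496 against 2572 to 78025. In p53null-T11 the endothelial sum was 6876 and the luminal sum 33742, which was mostly Krt8 (11057) and Krt18 (22508). The luminal genes Epcam and Cldn3 were at 81.4 and 19.9 in p53null-T11, near the 87.4 and 19.3 of PLK2null-732. The part of endothelial or other stromal RNA in the keratin values was not tested.

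The type I basal keratins exceeded the type II basal keratins in 19 of 28 PLK2null and 10 of 13 p53null tumors, by larger ratios in many PLK2null tumors. Per kilobase, the sum of Krt14, Krt15, Krt16 and Krt17 was 6.70 times the sum of Krt5, Krt6a and Krt6b at the median in the PLK2null tumors, from 0 in PLK2null-743 to 265 in PLK2null-1981. The p53null ratio was 1.51 at the median, from 0.306 in p53null-2331L to 48.3 in the library labelled p53null-7435. For the constitutive pair, Krt14 per kilobase was 18.6 times Krt5 at the median of 27 PLK2null tumors with Krt5 above 0, and 3315 times in PLK2null-7764, where Krt14 was at 3601 and Krt5 at 1.41. It was 0.756 times at the median of the p53null tumors. The sums leave out the type II keratin Krt8, which was at 4650 per kilobase in PLK2null-7764 and at 7623 in PLK2null-1981.

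The leading type II keratin per kilobase was Krt6a in 16 and Krt5 in 12 of the 28 PLK2null tumors, and Krt5 in 11 and Krt6a in 2 of the 13 p53null tumors. The leading type I keratin in the PLK2null tumors was Krt17 in 15 and Krt14 in 12, with none detected in PLK2null-743. The p53null tumors had Krt14 leading in 6, Krt15 in 3, Krt17 in 3 and Krt16 in 1, p53null-T11. Below a Krt5 value of 10 there were 11 tumors, 10 PLK2null and 1 p53null. In these, Krt14 ran from 0 to 4705 and was at 1000 or above in 4, Krt17 ran from 0 to 5065 and was at 1000 or above in 3, and Trp63 ran from 3.95 to 99.0. A tumor with almost no Krt5 could thus carry Krt14 and Krt17 above the upper quartile, while Trp63 was low in all 11.

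**Figure D3:**
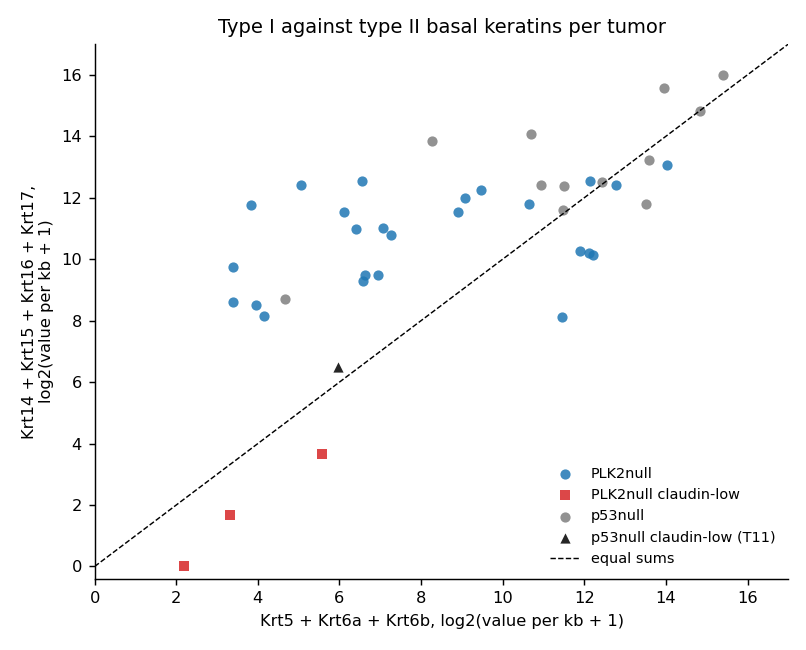
Sum of Krt14, Krt15, Krt16 and Krt17 against the sum of Krt5, Krt6a and Krt6b in each tumor, both as log2(value per kilobase + 1), with a dashed line at equal sums. Most PLK2null tumors with a low type II sum lie far above the line, up to a ratio of 265, and the 3 PLK2null claudin-low tumors lie below it.

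Krt5 and Trp63 rose and fell together within each genotype. Spearman's rho was 0.75 over the 28 PLK2null tumors and 0.70 over the 13 p53null tumors, given as a description without a p because tumors may descend from one another and share a scaling. At a value of 1000, the upper quartile of a tumor's nonzero values, 8 PLK2null tumors were high in Krt5, 8 in Trp63 and 7 in both, which is 87.5% of each. The exceptions were PLK2null-1970, with Krt5 at 2851 and Trp63 at 584, and PLK2null-7753, with Krt5 at 594 and Trp63 at 1455. Of the p53null tumors, 10 were high in Krt5, 10 in Trp63 and 9 in both, or 90% of each. There the exceptions were p53null-2225L, with Krt5 at 6141 and Trp63 at 930, and the library labelled p53null-7435, with Krt5 at 434 and Trp63 at 2314.

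**Figure D4:**
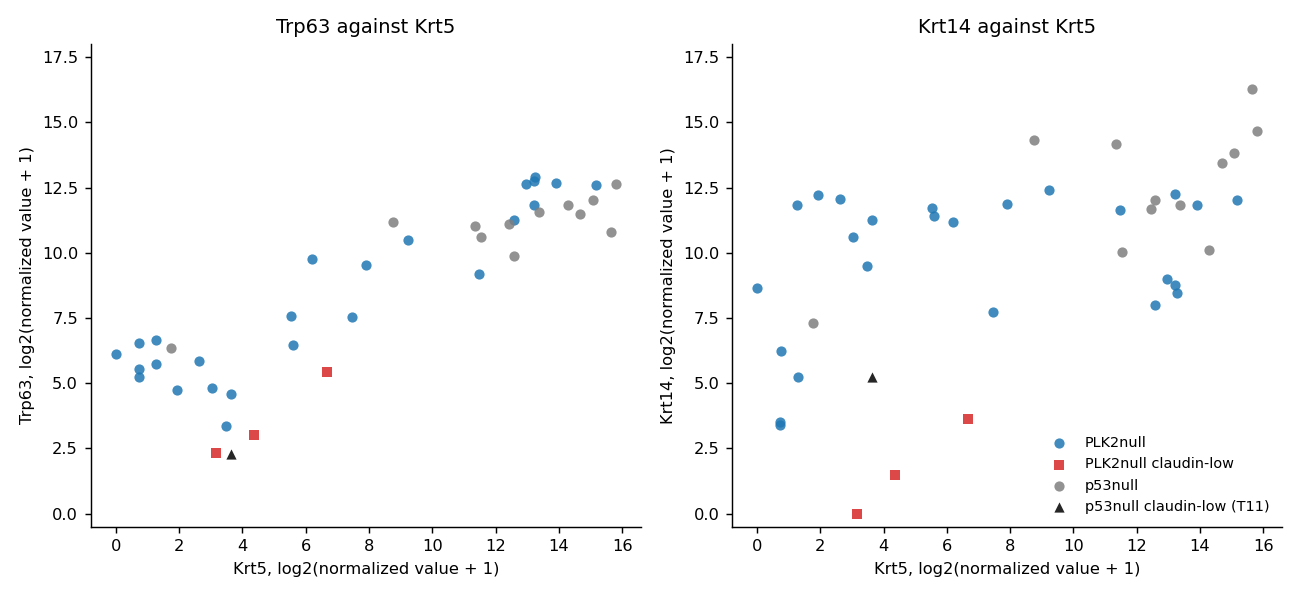
Trp63 (left) and Krt14 (right) against Krt5 in each of the 41 tumors, all as log2(value + 1). Tumors with high Krt5 also had high Trp63 (rho 0.75 in PLK2null tumors), whereas Krt14 was above 1000 in tumors with Krt5 from 1.41 to 57477.

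Krt5 and Krt14, filament partners, had a rho of 0.34 in the PLK2null and 0.60 in the p53null tumors. Krt6a and Krt6b, which share reads, had the highest rho at 0.89 and 0.92. Krt14 and Krt17 followed at 0.76 and 0.74. Krt16 stood apart from Krt5 (-0.10 and -0.02) and from Trp63 (0.11 and -0.19). The median of the 28 pairs was 0.50 in the PLK2null and 0.54 in the p53null tumors, and 0.37 in the PLK2null tumors without the claudin-low ones.

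**Figure D5:**
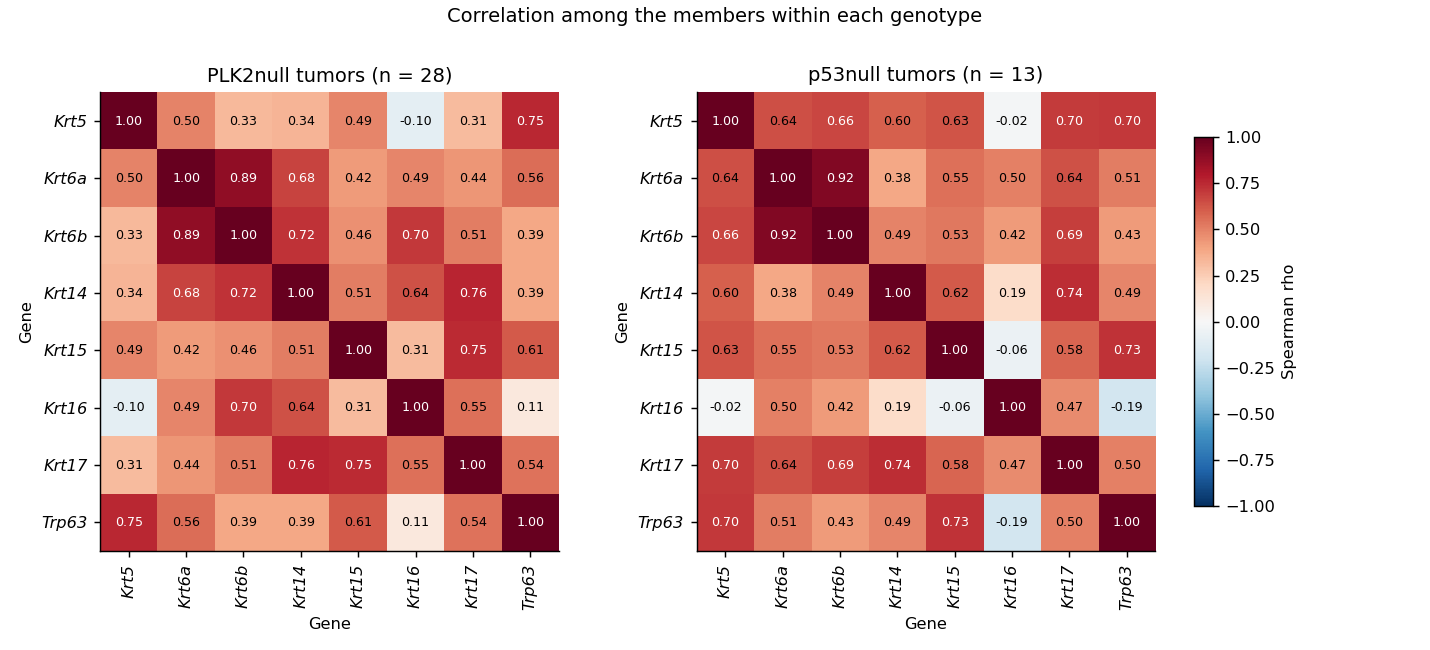
Spearman's rho between each pair of the 8 genes on log2(value + 1), within 28 PLK2null tumors (left) and 13 p53null tumors (right). Krt6a with Krt6b is the highest pair in both (0.89 and 0.92), and Krt16 is near 0 with Krt5 in both.

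Genes outside the family were ranked by the smaller of their rho in the 2 genotypes among 17208 genes. For Krt5 these were Dlk2, an EGF-repeat membrane protein gene (0.83 in PLK2null, 0.81 in p53null), Efcab1 (0.76, 0.76), Dmbt1, a secreted scavenger receptor of epithelia (0.72, 0.78), Phyhip (0.76, 0.70) and Fbxo32, a ubiquitin ligase subunit (0.70, 0.71). For Trp63 they were Pgbd1 (0.83, 0.84), Gsg1l (0.79, 0.87), Itih2 (0.80, 0.79), Cdh3, the P-cadherin of basal cells (0.78, 0.82), and Plch2 (0.78, 0.79). For Krt6a they included Lama3, a laminin chain of the epithelial basement membrane (0.80, 0.69), Mal (0.68, 0.85), the ligand gene Wnt4 (0.71, 0.68) and Bnc1, a zinc finger gene of basal keratinocytes (0.67, 0.73).

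Counts in lists of genes that work beside the basal keratins stand against the same background of 15.3% of all genes lower in the PLK2null tumors and 39.5% changed in either direction. Of 9 p63 target genes, 2 were lower in the PLK2null tumors, Trim29 by -3.38 (adjusted p = 0.00670, limma) and Sfn, the 14-3-3 sigma gene, by -1.70 (adjusted p = 0.00624), and 0 were higher, with 6 lower at an unadjusted p below 0.05. The background shares are for the adjusted threshold, and no share of all genes was counted at the unadjusted one. All 9 differences of the p63 target genes were negative, with a median of -1.64. Of 9 genes of the hemidesmosome and its laminin, which anchor basal cells to the basement membrane, Col17a1 was lower by -4.01 (adjusted p = 0.00688, limma) and Dst, the plakin gene whose epithelial form holds keratin filaments there, was higher by 2.36 (adjusted p = 1.55e-07). Of 9 desmosome genes, Dsc3, a basal desmosomal cadherin, was lower by -3.65 (adjusted p = 0.00286, limma). Of the other p53 family genes, Trp73 was lower by -3.73 (adjusted p = 0.00207, limma) and Trp53 was higher by 0.64 (adjusted p = 0.0215, limma), although its locus is targeted in both genotypes. Dsc3 and Trp73 had a mean log2(value + 1) of 2.48 and 2.19 in the PLK2null and 6.13 and 5.92 in the p53null tumors. Such genes could pass the filter on the mean through the p53null tumors. Of 5 simple keratins and 6 luminal genes, 0 passed in limma in either direction, and 1 of each list was lower at an unadjusted p below 0.05. Of 6 endothelial genes 0 passed, 0 also at an unadjusted p below 0.05.

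Between the claudin-low and the other PLK2null tumors, where 17.1% of all genes were lower and 37.3% changed in either direction, 6 of 9 p63 target genes were lower and 0 higher (1 at an unadjusted p below 0.05 in limma), among them the kinase gene Ripk4 (-7.77) and Zfp750 (-7.37), regulators of keratinocyte differentiation. Of the desmosome genes, 7 of 9 genes were lower, led by Pkp1 (-9.95), Dsg2 (-8.84) and Dsp (-8.34). Of the hemidesmosome and its laminin, 4 of 9 were lower, among them Lamb3 at -7.04 and Itgb4 at -6.35, and 2 were higher, Itga6 at 1.11 (adjusted p = 0.0151, limma) and Dst at 1.08 (adjusted p = 0.0497, limma). Itga6 is also made by endothelium. Of the other p53 family genes, 0 of 2 passed in limma, 0 also at an unadjusted p below 0.05.

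Skin expresses every basal keratin, and the summed values of its markers had higher medians in the p53null tumors. The summed value of 8 epidermal genes was 38.4 to 240.5 in the PLK2null tumors (median, 132) and 95.3 to 1254 in the p53null tumors (median, 196), and 3 of the 4 tested were lower in the PLK2null tumors, Krtdap by -2.61, Krt1 by -1.77 and Lor by -1.68. For the 7 of 8 hair follicle genes in the table it was 4.79 to 337 (median, 42.6) and 116 to 747 (median, 231), and 2 of 4 were lower, Krt71 by -3.20 and Krt27 by -2.12. Over all genes, 15.3% were lower and 39.5% changed. Genes were tested by their mean over all tumors, so genes low in the PLK2null tumors could enter through high p53null values. Krtdap, for example, had a mean log2(value + 1) of 0.458 in the PLK2null and 3.07 in the p53null tumors. These counts are therefore partly set by the filter. Over the 8 genes, the rho with the epidermal sum ran from -0.09 (Krt5) to 0.45 (Krt15) within the 28 PLK2null tumors and from 0.08 (Krt14) to 0.60 (Krt6a) within the 13 p53null tumors. With the hair follicle sum it ran from 0.34 (Krt16) to 0.79 (Trp63) within the PLK2null tumors, with Krt5 at 0.75 and Krt6a at 0.74, and from -0.03 (Krt16) to 0.32 (Krt14) within the p53null tumors. The part of skin in the basal keratin values was not tested. Of 6 myoepithelial contractile genes, Acta2 was lower in the PLK2null tumors by -1.49 (adjusted p = 0.0275, limma), and of 2 oral and esophageal type keratins, Krt4 was lower by -2.49 (adjusted p = 0.0227, limma). The limit of the filter holds for Krt4 too, at a mean log2(value + 1) of 1.70 in the PLK2null and 4.19 in the p53null tumors.

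The highest values of 5 of the 8 genes came from 1 tumor. In p53null-5329, Krt6a was at 40512, Krt6b at 5049, Krt14 at 80243, Krt16 at 7069 and Krt17 at 19196, each the highest of the 41 tumors. Without p53null-5329 and the library labelled p53null-7435, 4 of the 8 genes were lower in the PLK2null tumors, Krt5 at -5.02 (adjusted p = 0.0160, limma), Krt6a at -2.75, Krt6b at -1.98 and Krt15 at -3.04, and Krt14 was at -2.45 (adjusted p = 0.105, limma).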

How the data were processed

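RNA of 41 mouse mammary tumors was sequenced with paired reads of 50 bases on Illumina HiSeq instruments after TruSeq mRNA preparation, 1 library per tumor. Per the submitters' processing notes and the methods, the authors used STAR 2.7.6a on mm10, Salmon 1.4.0, Picard 2.22.4 and SAMtools, and scaled each tumor to an upper quartile of 1000. The annotation behind the gene table is not given in the sources used here. The deposited values are a linear signal of scaled estimated counts for 47480 symbols, of which 95% matched a single GENCODE vM21 gene and 51.5% of values were 0. Between 77.8 and 80.5% of nonzero values lay within 0.1 read of a whole multiple of the read's worth, too few to recover reads, so no count model was used. Columns were matched to tumors by title, and 0 columns were left unused. PLK2null-7750 and PLK2null-1984 were the most alike of all pairs, and their scaled reads still differed beyond sampling noise, by a median chi-square over genes of 5.13.

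Tests used limma 3.58.1 in R 4.3.3 on log2(value + 1), without covariates, with a threshold of 0.05. Single genes were also tested by 2-sided permutation of the difference in mean log2(value + 1), exactly over 3276 splits for 3 against 25 tumors and with 100000 resamples for 28 against 13. Levels between genes were compared per kilobase of the principal coding transcript. Python 3.11.15 was used with pandas 2.3.3, numpy 2.4.6, matplotlib 3.10.9 and scipy 1.17.1. The genes and gene lists were chosen with earlier results of these data known. Named genes were the 8 genes, Plk2, up to 3 genes per list, direction and comparison with the largest differences among those that passed, and the 5 nearest genes of Krt5, Trp63 and Krt6a without predicted genes, some of which are not reported here. On simulated data, the genotype test recovered 82 of 97 genes changed by 2 on the log2 scale and 92 of 92 changed by 4 among 16750 genes, with 4 unchanged genes passing. With 3 tumors against 25 it recovered 75 of 100 and 90 of 99 among 16757 genes, with 10 unchanged genes passing. The simulated tumors were independent, and the changed genes were drawn at random from all genes tested. These rates thus need not hold for the 8 genes, whose SE between the genotypes ran from 0.757 (Krt6b) to 1.57 (Krt5). RefSeq start windows were found for 2 of the 8 genes, Krt5 and Krt14, and that of Krt14 lay inside the annotated gene and was not used. Alternatives were other pseudocounts, filters, scalings, a limma trend and other sets of tumors.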

Additional observations from a re-analysis of the deposited data

Results flagged for a closer look

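In groups of 4 to 10 tumors (the 7 primary PLK2null tumors and the 4 claudin-low tumors), the 8 genes gave 16 checks of whether 1 tumor stood apart from the rest by Dixon's criterion, and 2 did. Chance gives about 1 in 20 such groups for values without ties. Both flags rest on values at or near 0 in the other tumors, so that rate does not apply to them. Among the 4 claudin-low tumors, Krt16 was at 104 in p53null-T11 and the next highest was 0.716, in PLK2null-732. Krt6b was at 13.3 in p53null-T11 and at 0 in the 3 others, and its reads are shared with Krt6a, which was at 115 in p53null-T11. p53null-T11 is also the only one of the 4 with p53-/- alone and the only one from the named library series, and these cannot be told apart.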

How the results depend on the processing

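Of the alternatives for the 8 genes, none reversed a direction. With only the 7 named primary PLK2null tumors, the count of the 8 genes lower than in the p53null tumors went from 5 to 0 and the count over all genes from 6802 to 2942, with fewer tumors by construction. The claudin-low p53null-T11 stayed in that fit, while the claudin-low PLK2null tumors did not. Leaving out 1 tumor at a time, 4 to 7 of the 8 genes were lower and 6346 to 7074 of all genes passed, with 4 lower without p53null-10151 and 7 without p53null-T11. Between the claudin-low and the other PLK2null tumors, leaving out 1 claudin-low tumor gave 6 lower genes each time and 4527 to 4629 over all genes, against 6391. Trp63 lost its call there with a pseudocount of 10 (adjusted p = 0.0699, limma), without a filter (0.0571) and with quantile normalization (0.0518), and a mean of at least 50 left Krt6b untested. Between the genotypes Trp63 passed with a pseudocount of 10 (adjusted p = 0.0442, limma), and Krt17 (0.0134) and Trp63 (0.0226) passed without the 4 claudin-low tumors, where 7 of the 8 genes were lower. With Pearson's r in place of Spearman's rho, the median of the 28 pairs in the PLK2null tumors was 0.70 and Krt5 with Trp63 0.87. Without the claudin-low tumors the median Spearman's rho was 0.37, against 0.50. The sets without PLK2null-7763 and without p53null-7435 and p53null-5329 were chosen after seeing the data. No paired analysis was possible because replicate numbers were given in accession order and pair no tumors. Depth limits most keratin values other than Krt5 in the PLK2null claudin-low tumors, which lie at or near the floor of 3 reads. Krt6b and Krt16 were at or below the floor in 3 and 4 of the 28 PLK2null tumors. In the 13 p53null tumors they were so in 0 and 1.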

Other observations

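Krt8, the type II partner of Krt18, was at 198 in p53null-5317, against 11057 to 116097 in the 12 other p53null tumors. Krt18 in p53null-5317 was at 16732, against 20617 to 95210 in the others. Krt7 was at 53.1, against 18.6 to 24483 in the others (median, 7557). Krt19 was at 60.9, against 9.74 to 84670 (median, 2137). Krt14 was at 18283 and Krt5 at 2590 in p53null-5317. The tumor was singled out after its values were seen, and no test was made.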
